A study of Homo sapiens with 6 samples.

Results

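Collagens, the enzymes that modify and cross-link them and the proteinases that cut them were followed in SW403 cells with and without IRS2 knockdown. SW403 is an established human colon adenocarcinoma line, and the name is that of the labels. The genes were chosen by symbol: collagen chains, the lysyl oxidase (LOX), lysyl hydroxylase (PLOD) and prolyl hydroxylase (P4HA) families, matrix metalloproteinases (MMP), their tissue inhibitors (TIMP), and FN1, SPARC and SERPINH1. Of 84 such genes among the 26490 symbols of the count table, 47 had a mean of at least 10 counts over the 6 libraries and form the set described here. The other 37 lay under that mean, and 5 of these had no count in any library.

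The study asks what IRS2, an adaptor of insulin and IGF1 receptor signalling, does in colorectal cancer that reaches the brain. RNA-seq libraries were made from 3 control cultures, labelled WT by genotype and NS in the sample names, and from 3 cultures labelled IRS2 knockdown, with KO in the sample names. All were grown for 24 h in DMEM with fetal bovine serum and no treatment. How IRS2 was lowered, what NS stands for and whether a group's 3 cultures derive from different lines are not given in the sources used here, so p-values measure the spread between these cultures. The control libraries held 11816973 to 12585013 counts and the knockdown libraries 14329348 to 18114656, so every knockdown library was deeper. Levels below are therefore CPM, counts scaled to a library total of 1000000, listed as control replicates 1, 2 and 3 and then knockdown replicates 1, 2 and 3. IRS2 itself was at 32.4, 34.8 and 32.2 CPM in control and at 13.0, 12.3 and 11.9 CPM in knockdown, a log2 fold change of -1.39 ± 0.07 (SE; edgeR adjusted p 3.11e-11).

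The line was checked against markers of colon epithelium and of other cells. KRT8, KRT18, KRT19, EPCAM and CDX2 were expressed, but CDH1 and CDH17 were near 0, LGALS4 had counts in 1 library only, and KRT20 and CDX1 had none. VIM, a mesenchymal filament gene outside the lists that was looked at after its values were seen, averaged 15922 counts. The identity of the line is therefore in doubt, and it was not tested. The 11 epithelial markers summed to 2537 to 2637 CPM in control and 2364 to 2456 CPM in knockdown. The 10 stromal markers summed to 13.8 to 16.8 CPM in control and 7.12 to 9.33 CPM in knockdown, and 6 of them were under 1 CPM in every library, among them THY1, DCN, FAP and POSTN. PDPN and TAGLN were the 2 stromal markers called, both lower, while PDGFRB and ACTA2 were tested and not called. Of the epithelial markers, EPCAM and KRT19 were called lower and CDX2 higher, and KRT8, KRT18 and VIL1 were tested and not called. Endothelial markers summed to at most 0.876 CPM and leukocyte markers to at most 2.93 CPM. The stromal sum moved in the same direction as the low-abundance collagens described below. Its part in those results was not tested, and in bulk RNA fewer cells of a type and less RNA per cell cannot be told apart.

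A collagen molecule is a triple helix of 3 chains. In the endoplasmic reticulum, prolyl and lysyl hydroxylases modify the chains, and the chaperone encoded by SERPINH1 accompanies the folded helix. Outside the cell, lysyl oxidases cross-link the molecules into fibres or sheets, and metalloproteinases held in check by TIMPs take them apart. Type IV collagen forms the sheet of basement membranes on which intestinal epithelium rests, while fibrillar types I, III and V are mainly products of stromal fibroblasts.

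Of the abundant genes of the set more rose than fell in knockdown, by small factors, and the scarce ones that changed all fell, most of them by a large factor. Of 46 members tested (COL1A2 did not pass the low-count filter), 31 were called at a 0.05 threshold on the adjusted p (quasi-likelihood test of edgeR), 13 higher and 18 lower. Over all 13832 tested genes, 38.5% were called, 19.3% higher and 19.2% lower. Among the 25 members averaging 100 counts or more, 13 were higher and 5 lower (of all genes at that abundance 41.3% were called, 23.8% higher and 17.5% lower), and their median log2 fold change was 0.13 against 0.01 for all such genes. Among the 21 tested members with a mean under 100 counts, 0 were higher and 13 lower (of all such genes 29.9% were called, 5.62% higher and 24.3% lower), with a median of -1.14 against -0.15. At an unadjusted p under 0.05 the number of higher members there was 1, MMP11. A filter on counts favours genes that are high in 1 group, so the scarce members that were tested are not all of the scarce members. The 13 falls include genes that could pass it through control alone. MMP16, for example, had 16, 24 and 30 counts in control and 7, 10 and 8 in knockdown.

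Libraries of the groups did not overlap for 32 of the 46 tested members, with knockdown above control for 14 and below for 18. Over all tested genes 48.4% did not overlap, 19.6% above and 28.8% below. Of members averaging 100 counts or more 13 lay above and 6 below, where 50.7% of such genes did not overlap, 23.1% above and 27.6% below. Of scarcer members 1 lay above and 12 below, where 41.1% of such genes did not overlap, 8.78% above and 32.3% below.

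**Figure D1:**
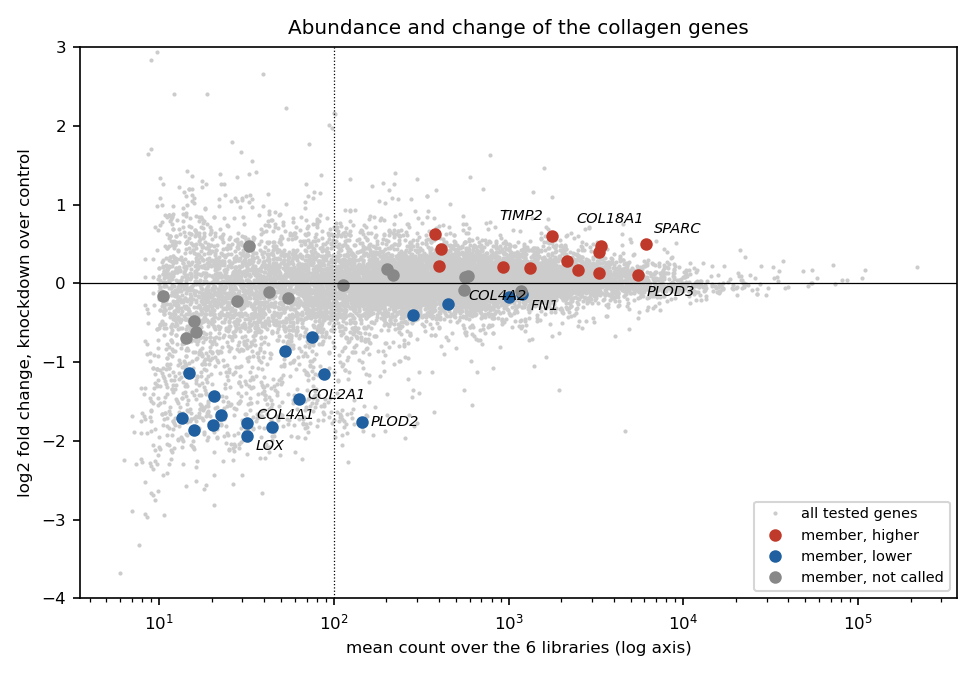
Mean count over the 6 libraries (log axis) against log2 fold change of knockdown over control, for all 13832 tested genes (grey) and the 46 tested members (red higher, blue lower, dark grey not past the threshold). Right of the dotted line at 100 counts 13 members are red, and left of it 0 are red and 13 are blue.

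Falls of at least 2-fold were seen in 12 members, and rises of that size in 0. In all tested genes 4.32% fell and 0.586% rose that far, and at a mean under 100 counts these shares were 15.5% and 1.68%. The log2 fold changes of these 12 ran from -1.14 (MMP24) to -1.94 (LOX). With all libraries, 8 of them lay between -2.0 and -1.6: COL4A1, COL5A1, COL5A2, COL3A1, COL25A1, LOX, PLOD2 and MMP16. In that fit 0 tested members fell further. COL3A1 ranged from -2.38 to -1.04 when 1 library was left out. COL1A2, not tested, averaged 2.65 CPM in control, with 6.83 CPM in control replicate 1, and 0.353 CPM in knockdown. COL14A1, tested but outside the set by its mean count, had a log2 fold change of -3.32. Of all tested genes, 213 lay between -2.0 and -1.6 and 56 between -2.4 and -2.0, and of those averaging 30 counts or more 109 and 12. The stromal marker sum was also lower in knockdown, in large part through PDPN. Whether a minor population of cells differed between the groups was not tested.

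**Figure D2:**
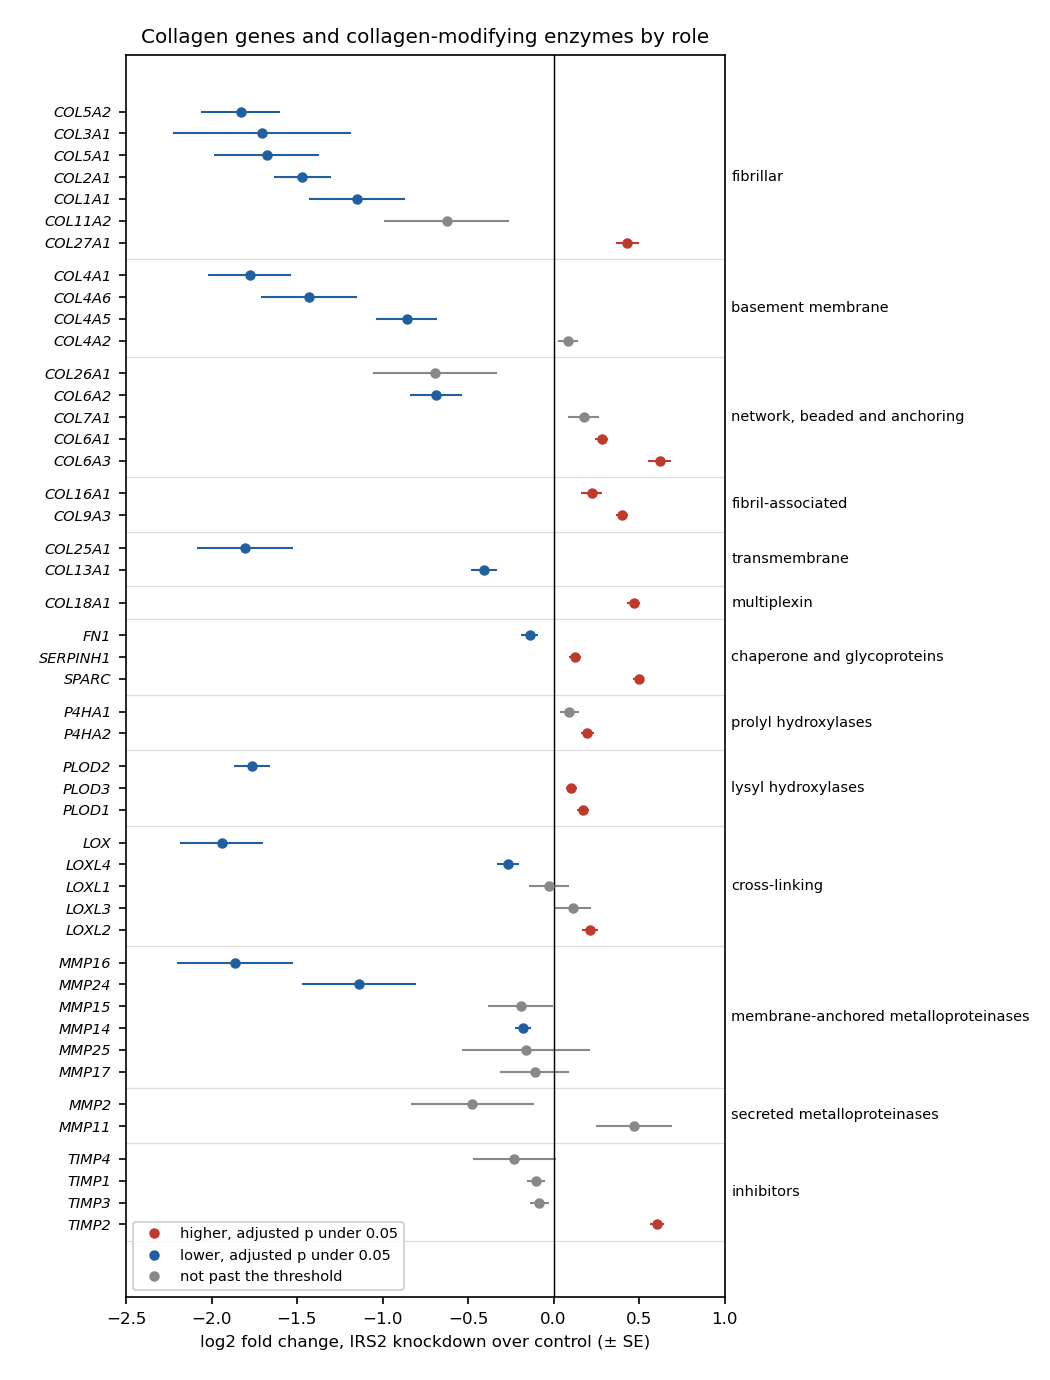
Log2 fold change of knockdown over control with its SE for the 46 tested members, grouped by role and coloured by call. Each of the fibrillar, basement membrane, lysyl hydroxylase and cross-linking groups holds a member with a log2 fold change under -1.7 beside one above 0.

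Fibrillar collagens form the ropes of connective tissue. Of the 8 in the set, 7 were tested, of which 5 were lower and 1 was higher. Of all tested genes 19.2% were lower and 19.3% higher, and of those with a mean under 100 counts 24.3% and 5.62%. COL5A2, a chain of the type V collagen that starts type I fibrils, was at 5.32, 4.94 and 5.59 CPM in control and 0.768, 1.88 and 1.60 CPM in knockdown. Its log2 fold change was -1.83 ± 0.23 (SE; edgeR adjusted p 3.65e-06). COL5A1, another type V chain, had 3.18, 3.03 and 1.52 CPM against 0.837, 0.645 and 0.883 CPM. Both chains fell without overlap between groups, COL5A1 by 1.68 on the log2 scale (SE 0.31; edgeR adjusted p 0.000244). COL5A3, the third type V chain, was under the mean of 10 counts and not tested, with overlapping groups that averaged 0.214 CPM (control) and 0.236 CPM (knockdown). COL2A1, the cartilage collagen, was at 6.52, 8.20 and 6.18 CPM in control and 2.44, 2.40 and 2.54 CPM in knockdown (log2 fold change -1.47 ± 0.17 SE, edgeR adjusted p 1.25e-06). Its knockdown values lay close together, far under every control value.

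Single libraries moved the values of type I and type III collagen. COL1A1 was at 15.3, 5.73 and 5.67 CPM in control and 4.26, 3.63 and 3.97 CPM in knockdown. Control replicate 1 stood far above the other control libraries. Its fall was called by edgeR with and without that library. With it the log2 fold change was -1.15 ± 0.28 (SE; edgeR adjusted p 0.00290), and without it -0.50 (edgeR adjusted p 0.0325). DESeq2's Wald test with all libraries gave an adjusted p of 0.0849. COL1A2, which encodes the partner chain of COL1A1, had 86, 11 and 3 counts in control and 8, 1 and 8 in knockdown, and was not tested. COL3A1 was at 2.70, 1.51 and 0.423 CPM in control and 0.419, 0.176 and 0.773 CPM in knockdown, with overlap between groups. It passed with all libraries (log2 fold change -1.71 ± 0.52 SE, edgeR adjusted p 0.0136), but not without control replicate 1 (-1.04, edgeR adjusted p 0.179) or without knockdown replicate 2 (-1.31, edgeR adjusted p 0.0766). Control replicate 1 was also the highest library for COL12A1 and MMP2. Over the 13798 genes averaging 10 counts or more, it exceeded every other library more than 3-fold for 4 genes, of which COL1A2 was the 1 member, and the other 5 libraries did so for 0 or 1 gene each.

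COL27A1 went the other way. This gene encodes a fibrillar collagen of cartilage and other tissues, and was the most abundant fibrillar chain per transcript length. It was at 23.3, 25.1 and 24.4 CPM in control and 34.5, 31.6 and 30.3 CPM in knockdown, and rose with a log2 fold change of 0.43 ± 0.07 (SE; edgeR adjusted p 3.89e-05). COL11A2 was scarce and did not pass (1.45 ± 0.723 CPM in control and 0.914 ± 0.255 in knockdown, SD, n = 3 per group, edgeR adjusted p 0.194), except without control replicate 2 (edgeR adjusted p 0.0317).

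Type IV collagen genes lie in head-to-head pairs, and the common type IV molecule is a trimer of COL4A1 and COL4A2 products. COL4A1 fell while COL4A2 did not change past the threshold. COL4A1 was at 4.05, 4.06 and 3.13 CPM in control and 0.768, 0.996 and 1.38 CPM in knockdown, a log2 fold change of -1.78 ± 0.24 (SE; edgeR adjusted p 1.06e-05). COL4A2 was at 37.4, 36.1 and 41.4 CPM in control and 39.6, 40.7 and 39.0 CPM in knockdown (log2 fold change 0.09 ± 0.06 SE, edgeR adjusted p 0.258). The groups of COL4A1 were far apart and those of COL4A2 overlapped. Per kilobase of transcript, COL4A2 in control was at 5.94 CPM and COL4A1 at 0.573 CPM. COL4A1 held 8.97 ± 1.68% of the counts of the pair in control and 2.57 ± 0.776% in knockdown (SD, n = 3 per group). This share needs no scaling between libraries, and its groups did not overlap (two-sided exact permutation p 0.1, the smallest that 3 against 3 allows). It rests on the same counts as the fold changes of the 2 genes, so it is not separate support for them.

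Both genes start on chromosome 13, on opposite strands, with 126 bases between the starts of their canonical transcripts. COL4A1 (GRCh37, chr13:110801310-110959504, minus strand) is also near the targeted gene, with 362379 bases between it and IRS2. The sequence between the starts of the pair is shown because it is the stretch the 2 genes share. It is read on the COL4A2 strand from the GRCh37 genome (chr13:110959505-110959630), with the letters CCAAT in capitals.
COL4A1 to COL4A2: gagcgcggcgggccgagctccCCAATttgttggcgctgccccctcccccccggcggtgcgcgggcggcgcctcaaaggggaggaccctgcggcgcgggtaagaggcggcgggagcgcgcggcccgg
CCAAT is the box bound by NF-Y. On either strand it was found in 36.01% of the 300-base windows around the starts of 19853 protein-coding genes (250 bases before to 50 after), and in 16 of the 47 members' windows. The windows of COL4A1 and COL4A2 each hold this whole stretch, so their match is the same one.

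The second pair, COL4A5 and COL4A6, lies on chromosome X with 1415 bases between the starts. Both fell. COL4A6 was at 2.46, 1.99 and 2.28 CPM in control and 0.977, 0.938 and 0.552 CPM in knockdown (log2 fold change -1.43 ± 0.28 SE, edgeR adjusted p 0.000456). COL4A5, the chain altered in X-linked Alport syndrome, went from 4.98 ± 0.321 to 2.69 ± 0.433 CPM (SD, n = 3 per group; log2 fold change -0.86, edgeR adjusted p 0.000764). Of the third pair, COL4A4 had a mean just under 10 counts and COL4A3 was lower still.

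Type VI collagen, a beaded filament around cells, is built from 1 chain each of COL6A1, COL6A2 and COL6A3. The chains did not move together. COL6A3 was at 20.7, 21.6 and 19.2 CPM in control and 32.0, 30.6 and 30.2 CPM in knockdown, a rise of 0.62 ± 0.07 (log2, SE; edgeR adjusted p 5.41e-07). COL6A1 was at 141, 131 and 132 CPM in control and 164, 161 and 155 CPM in knockdown (log2 fold change 0.28 ± 0.04 SE, edgeR adjusted p 8.72e-06). COL6A2 instead fell, from 6.72 ± 1.02 to 4.11 ± 0.356 CPM (SD, n = 3 per group; log2 fold change -0.69, edgeR adjusted p 0.00137). COL6A1 and COL6A2 stand in tandem on chromosome 21, yet per kilobase COL6A1 was at 32.0 CPM and COL6A2 at 1.95 CPM in control. The share of COL6A2 in the counts of this pair was 4.75 ± 0.497% in control and 2.50 ± 0.144% in knockdown (SD, n = 3 per group; two-sided exact permutation p 0.1). COL7A1, the anchoring fibril of skin and mucosa, was at 13.3 ± 1.43 CPM in control and 14.7 ± 0.234 in knockdown and passed only without control replicate 2 (edgeR adjusted p 0.140 with all libraries and 0.0428 without it). COL26A1 was scarce and did not pass (edgeR adjusted p 0.143), except without control replicate 1 (0.0426).

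Collagens that decorate other fibres or carry sugar chains were represented by 3 members, each called higher, COL16A1 not in every fit. All 3 averaged 100 counts or more, where 23.8% of all tested genes were higher. COL18A1 and COL9A3 had the highest CPM per kilobase of the collagen chains in the set. COL9A3, a chain of the fibril-associated type IX collagen of cartilage, was at 208, 191 and 188 CPM in control and 253, 256 and 250 CPM in knockdown (log2 fold change 0.40 ± 0.04 SE, edgeR adjusted p 7.59e-08). Its partners COL9A1 and COL9A2 were under the mean of 10 counts. COL18A1, the basement membrane proteoglycan from which endostatin is cut, was at 207, 193 and 187 CPM in control and 267, 268 and 261 CPM in knockdown (log2 fold change 0.47 ± 0.04 SE, edgeR adjusted p 7.97e-09). COL16A1 was at 25.8, 26.4 and 24.6 CPM in control and 28.7, 30.6 and 28.5 CPM in knockdown. Its rise of 0.22 ± 0.06 (log2, SE; edgeR adjusted p 0.00856) was lost in DESeq2's Wald test (adjusted p 0.0791) and without knockdown replicate 2 (edgeR adjusted p 0.0508).

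Both transmembrane collagens of the set were called lower, as were 19.2% of all tested genes. COL25A1, a collagen of neurons and muscle, was at 2.46, 2.55 and 2.20 CPM in control and 0.907, 0.527 and 0.607 CPM in knockdown (log2 fold change -1.80 ± 0.28 SE, edgeR adjusted p 4.53e-05). COL13A1, found at cell adhesion sites, was more abundant and fell less. It was at 25.0, 21.0 and 23.8 CPM in control and 17.7, 16.9 and 16.9 CPM in knockdown (log2 fold change -0.41 ± 0.08 SE, edgeR adjusted p 0.00031).

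**Figure D3:**
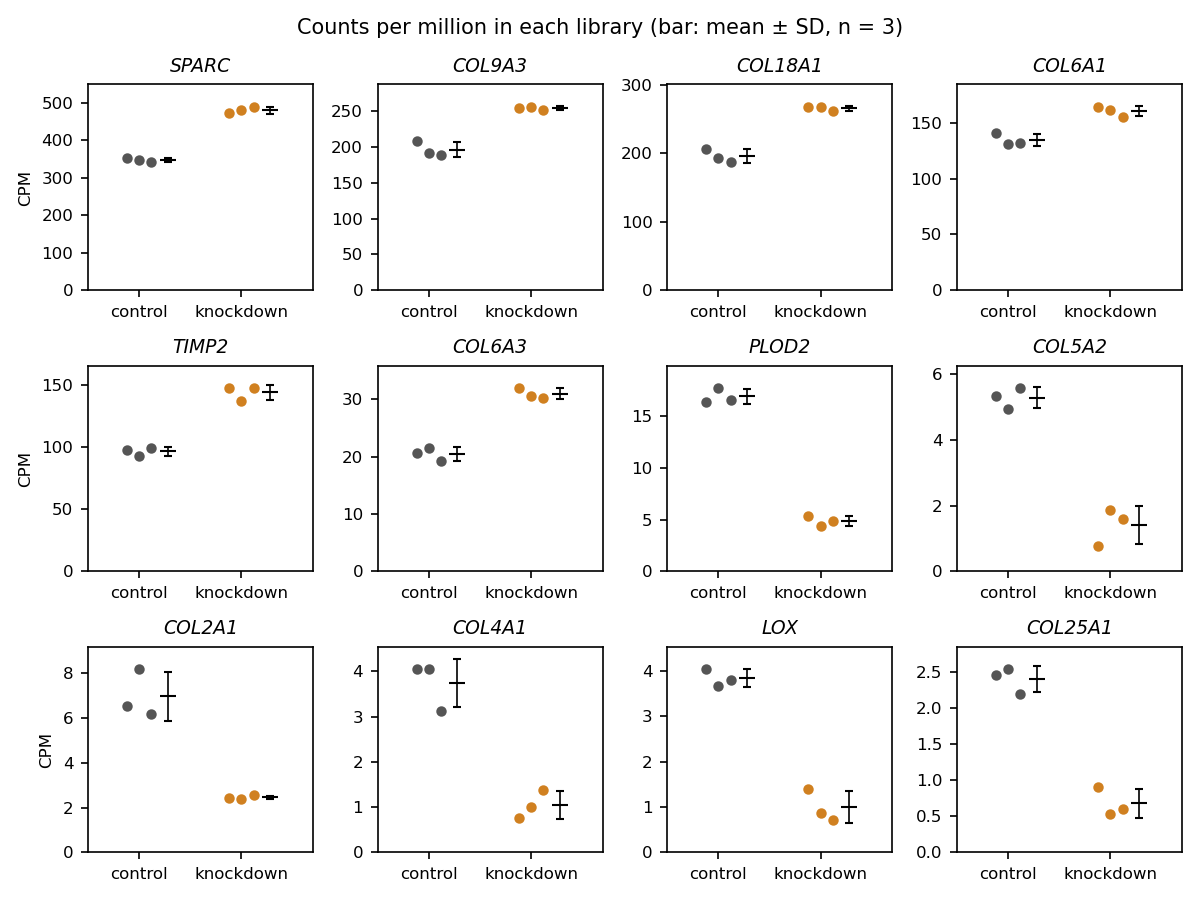
CPM in each library for 12 members, with the mean and SD of each group (n = 3) as a bar. The groups do not overlap in any of the 12 panels; SPARC, COL9A3, COL18A1, COL6A1, TIMP2 and COL6A3 are higher in knockdown and the other 6 lower.

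SPARC, a collagen-binding glycoprotein of the matrix, was the member with the highest mean count. It was at 352, 348 and 342 CPM in control and 471, 479 and 489 CPM in knockdown, a log2 fold change of 0.50 ± 0.03 (SE; edgeR adjusted p 2.9e-10). SERPINH1, the collagen chaperone HSP47, rose by less. Its values were 215, 217 and 225 CPM in control and 231, 230 and 240 CPM in knockdown (log2 fold change 0.13 ± 0.03 SE, edgeR adjusted p 0.00577). FN1, fibronectin, was at 93.5, 87.9 and 85.6 CPM in control and 82.5, 82.3 and 73.1 CPM in knockdown. The call of FN1 (log2 fold change -0.14 ± 0.05 SE, edgeR adjusted p 0.0322) was lost in DESeq2's Wald test (adjusted p 0.142) and without control replicate 1 (edgeR adjusted p 0.152), control replicate 2 (0.0711) or knockdown replicate 3 (0.162).

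Prolyl hydroxylation lets the helix stay folded at body temperature. P4HA2, a catalytic subunit, was at 86.4, 85.9 and 87.3 CPM in control and 96.5, 96.2 and 99.0 CPM in knockdown (log2 fold change 0.20 ± 0.04 SE, edgeR adjusted p 0.000498). Its groups did not overlap. P4HA1, the other subunit in the set, was at 39.8 ± 1.69 and 41.6 ± 2.03 CPM (SD, n = 3 per group; edgeR adjusted p 0.215).

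The lysyl hydroxylases split. PLOD2, which hydroxylates the collagen telopeptides where cross-links form, was at 16.4, 17.8 and 16.6 CPM in control and 5.37, 4.39 and 4.91 CPM in knockdown. Its groups lay far apart, with a log2 fold change of -1.76 ± 0.11 (SE; edgeR adjusted p 2.91e-10). PLOD2 was the 1 member with a mean of at least 100 counts that fell 2-fold or more, which 0.699% of all genes at that abundance did. PLOD1 was at 167, 164 and 161 CPM in control and 177, 184 and 181 CPM in knockdown, and rose with a log2 fold change of 0.17 ± 0.03 (SE; edgeR adjusted p 0.000448). PLOD3, which also adds sugars to hydroxylysine, was at 377, 367 and 371 CPM in control and 391, 381 and 401 CPM in knockdown. Its small rise (log2 fold change 0.10 ± 0.03 SE, edgeR adjusted p 0.0120) was lost when libraries were scaled by size alone (edgeR adjusted p 0.0553) and without control replicate 2 (0.0540). Within a library, PLOD2 held 3.06 ± 0.161% of the counts of the 3 genes in control and 0.848 ± 0.0832% in knockdown (SD, n = 3 per group; two-sided exact permutation p 0.1).

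Lysyl oxidases split in a similar way. LOX, the founding member, was at 4.05, 3.66 and 3.81 CPM in control and 1.40, 0.879 and 0.718 CPM in knockdown. The groups did not overlap, and the log2 fold change of -1.94 ± 0.24 (SE; edgeR adjusted p 3.83e-06) was the largest of any tested member. LOXL2, which also acts on basement membrane collagen IV, was at 62.9, 59.1 and 58.1 CPM in control and 67.6, 70.8 and 66.0 CPM in knockdown (log2 fold change 0.21 ± 0.05 SE, edgeR adjusted p 0.00143). LOXL4 was at 37.4, 34.0 and 33.3 CPM in control and 27.3, 28.5 and 29.4 CPM in knockdown, a log2 fold change of -0.26 ± 0.06 (SE; edgeR adjusted p 0.00239). LOXL1 (7.70 to 8.52 CPM in control and 7.34 to 7.91 in knockdown) and LOXL3 (12.8 to 18.3 and 15.1 to 16.1 CPM) did not pass, with edgeR adjusted p-values of 0.884 and 0.467. LOXL3 passed without control replicate 2 (log2 fold change 0.31, edgeR adjusted p 0.0204). The share of LOX in the counts of the 5 genes went from 3.17 ± 0.176% to 0.826 ± 0.299% (SD, n = 3 per group; two-sided exact permutation p 0.1). Shares were computed for 5 families, and all 5 had a Benjamini-Hochberg adjusted p of 0.1. The PLOD, LOX and DDR families were chosen for this after their values were seen. In each of the 5 the share is that of a scarcer gene already called lower from the same counts. No share was computed for COL4A5 and COL4A6, which both fell.

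**Figure D4:**
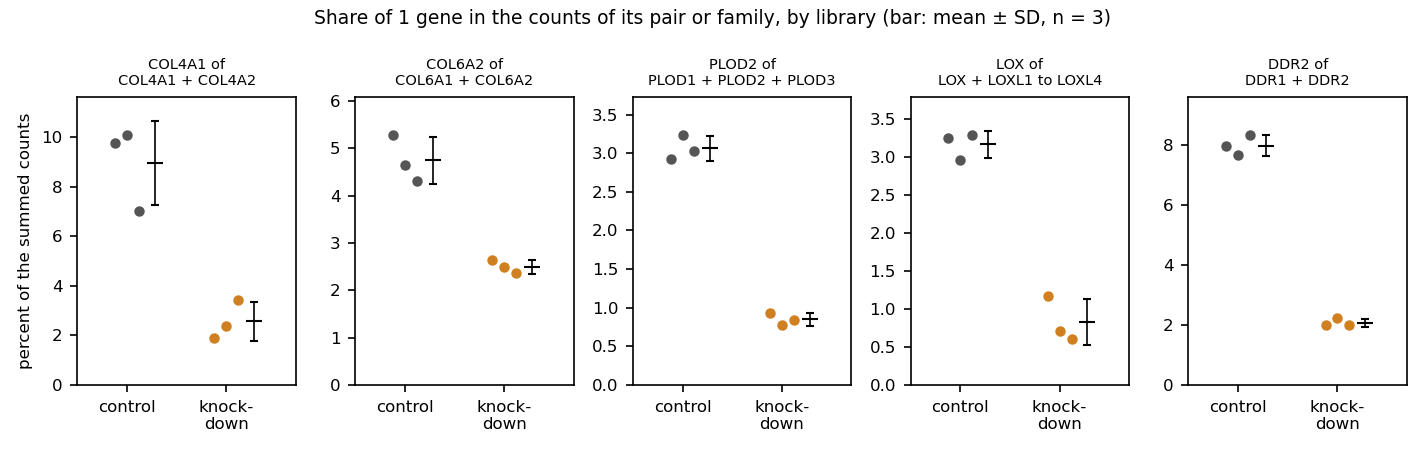
Share of COL4A1, COL6A2, PLOD2, LOX and DDR2 in the summed counts of their pair or family in each library (percent), with the mean and SD of each group (n = 3) as a bar. In each of the 5 panels the 3 knockdown libraries lie under the 3 control libraries.

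The starts of the lysyl hydroxylase genes and of LOX are shown because PLOD2 and LOX fell while PLOD1 and PLOD3 rose. Each window runs from 250 bases before to 50 bases after the start of the canonical transcript and was read from the GRCh37 genome on the gene's strand. Capitals mark ACGTG or its reverse complement CACGT, the core letters bound by hypoxia-inducible factor, a known regulator of both PLOD2 and LOX.
PLOD2 (chr3:145878922-145879221, minus strand): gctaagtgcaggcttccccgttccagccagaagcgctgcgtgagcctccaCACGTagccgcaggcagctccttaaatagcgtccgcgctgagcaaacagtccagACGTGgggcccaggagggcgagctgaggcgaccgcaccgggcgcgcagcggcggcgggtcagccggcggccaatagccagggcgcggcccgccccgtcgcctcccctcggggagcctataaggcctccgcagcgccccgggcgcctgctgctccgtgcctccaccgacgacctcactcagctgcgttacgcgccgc
LOX (chr5:121413905-121414204, minus strand): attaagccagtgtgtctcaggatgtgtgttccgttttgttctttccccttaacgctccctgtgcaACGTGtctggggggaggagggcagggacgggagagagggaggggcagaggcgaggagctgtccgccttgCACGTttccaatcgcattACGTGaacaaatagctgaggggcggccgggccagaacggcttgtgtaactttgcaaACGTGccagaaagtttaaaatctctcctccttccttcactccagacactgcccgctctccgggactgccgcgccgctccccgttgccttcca
PLOD1 (chr1:11994524-11994823, plus strand): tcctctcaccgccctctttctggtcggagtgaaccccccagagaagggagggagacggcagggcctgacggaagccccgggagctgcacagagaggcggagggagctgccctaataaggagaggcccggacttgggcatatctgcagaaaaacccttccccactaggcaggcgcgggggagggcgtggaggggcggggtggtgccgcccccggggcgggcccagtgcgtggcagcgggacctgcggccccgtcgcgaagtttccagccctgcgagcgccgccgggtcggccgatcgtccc
PLOD3 (chr7:100860813-100861112, minus strand): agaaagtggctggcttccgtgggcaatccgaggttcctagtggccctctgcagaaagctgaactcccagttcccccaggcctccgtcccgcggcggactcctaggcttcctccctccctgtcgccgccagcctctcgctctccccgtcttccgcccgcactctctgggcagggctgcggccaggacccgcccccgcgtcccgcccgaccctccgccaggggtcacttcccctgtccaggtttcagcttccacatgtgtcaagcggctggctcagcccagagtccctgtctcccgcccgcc
The marked letters, ACGTG or CACGT, occur 2 times in the PLOD2 window, 4 times in the LOX window and 0 times in those of PLOD1 and PLOD3. The unmarked form GCGTG is present in the windows of PLOD1 and PLOD2, so the 0 for PLOD1 does not mean that the core is absent. They were present in 11 of the 47 members' windows (23.4%) and in 23.32% of the windows of all 19853 protein-coding genes. In the windows of the 12605 such genes that were tested the share was 26.45%. The 11 members include 5 of the 18 called lower, among them COL5A1, MMP16 and MMP14, and 3 of the 13 called higher, namely P4HA2, SERPINH1 and TIMP2.

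Of 22 metalloproteinase genes, 8 were in the set, 6 of them anchored in the membrane. Of the 8, 3 were lower and 0 higher, a share called near the 38.5% of all tested genes, with 1 higher (MMP11) at an unadjusted p under 0.05. MMP14, the membrane collagenase that activates MMP2, was the most abundant per transcript length. It was at 76.9, 77.0 and 73.1 CPM in control and 67.8, 66.3 and 62.8 CPM in knockdown (log2 fold change -0.18 ± 0.05 SE, edgeR adjusted p 0.00415). MMP16, its relative, was at 1.27, 1.91 and 2.54 CPM in control and 0.489, 0.586 and 0.442 CPM in knockdown, a log2 fold change of -1.86 ± 0.34 (SE; edgeR adjusted p 0.000224). MMP24 was at 1.83, 1.19 and 1.52 CPM in control and 0.977, 0.645 and 0.442 CPM in knockdown. The call of MMP24 (log2 fold change -1.14 ± 0.33 SE, edgeR adjusted p 0.0110) was lost in DESeq2's Wald test (adjusted p 0.102) and without control replicate 1 or knockdown replicate 3 (edgeR adjusted p 0.0625 each). MMP24 also shares exon sequence with MMP24OS on the other strand, a gene with a mean of 519.7 counts. MMP15, MMP17, MMP25, MMP2 and MMP11 did not pass, with edgeR adjusted p-values from 0.102 to 0.772. MMP11 was the lowest of these, at 1.67, 1.83 and 2.12 CPM in control and 2.23, 2.93 and 2.43 CPM in knockdown, with no overlap between groups. The collagenases MMP1, MMP8 and MMP13 and the intestinal MMP7 had at most 3 counts over all libraries.

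Of the inhibitors, TIMP2 alone was called. TIMP2, which binds MMP14 and MMP2, was at 97.6, 92.4 and 99.3 CPM in control and 147, 137 and 148 CPM in knockdown, a log2 fold change of 0.61 ± 0.04 (SE; edgeR adjusted p 1.61e-09). The rise was many times the spread within groups. TIMP1, the most abundant inhibitor per transcript length, was at 88.6, 88.0 and 79.7 CPM in control and 74.5, 75.4 and 83.7 CPM in knockdown. TIMP1 did not pass with all libraries (log2 fold change -0.10 ± 0.05 SE, edgeR adjusted p 0.143), but passed without control replicate 3 (0.0463) or knockdown replicate 3 (0.0150). TIMP3 (40.2 ± 0.827 and 37.1 ± 1.63 CPM) and TIMP4 (2.13 ± 0.457 and 1.80 ± 0.275 CPM; SD, n = 3 per group) had edgeR adjusted p-values of 0.255 and 0.499.

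At the edge of the set, MMP25, COL3A1 and COL26A1 had the lowest means inside it, at 10.5, 13.5 and 14.2 counts. Just outside were COL4A4, COL12A1 and MMP21 at 9.67, 8.33 and 7.83 counts. COL4A4 had 18, 10 and 10 counts in control and 6, 8 and 6 in knockdown, and COL12A1 24, 11 and 5 against 3, 4 and 3. MMP21 had 9, 3 and 4 against 14, 13 and 4. Of the 37 genes under the mean of 10, 2 passed the filter and were tested, COL4A4 and COL14A1, and both were called lower (edgeR adjusted p 0.0132 and 0.000111). At so low a mean the filter favours genes that are high in 1 group, here control, so these 2 calls do not describe the 37 genes.

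Other genes that make, receive or accompany collagen were taken from a list of 53, none of them in the set. The list was chosen with earlier results of these data known. Of 45 tested, 22 were higher and 9 lower, and the median of their log2 fold changes was 0.11, against -0.00 for all genes, of which 19.3% were higher and 19.2% lower (23.8% and 17.5% at a mean of 100 counts or more). Falls of at least 2-fold were called in 5 of the 45, beside 4.32% of all tested genes. Each of the 5 had a mean under 100 counts, where 15.5% of all tested genes fell that far. Most of the 45 were more abundant, so 15.5% is not the share to set beside 5 of 45. In folding, modification and export, 8 of 17 were higher and 2 lower. P3H3, a prolyl 3-hydroxylase relative, rose from 73.1 ± 0.887 to 93.2 ± 3.32 CPM (SD, n = 3 per group; log2 fold change 0.38, edgeR adjusted p 8.38e-07). In propeptide processing, 2 of 7 were higher and 1 lower. The lower one, ADAMTS3, a procollagen N-proteinase, went from 2.19 ± 0.460 to 0.547 ± 0.235 CPM (SD, n = 3 per group; log2 fold change -1.91, edgeR adjusted p 0.000114).

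Of 7 tested collagen receptors 4 were higher and 2 lower, beside 19.3% and 19.2% of all tested genes. DDR2, the receptor tyrosine kinase for fibrillar collagen, was at 9.69, 8.84 and 9.90 CPM in control and 2.72, 3.05 and 2.59 CPM in knockdown (log2 fold change -1.73 ± 0.14 SE, edgeR adjusted p 1.61e-08). DDR1, its epithelial relative, was at 112, 107 and 109 CPM in control and 134, 134 and 128 CPM in knockdown (log2 fold change 0.30 ± 0.04 SE, edgeR adjusted p 3.32e-06). DDR2 held 7.97 ± 0.342% of the counts of the pair in control and 2.07 ± 0.135% in knockdown (SD, n = 3 per group; two-sided exact permutation p 0.1). Among integrin chains, ITGB1, shared by all collagen-binding integrins, rose from 168 ± 3.52 to 228 ± 1.50 CPM (SD, n = 3 per group; log2 fold change 0.47, edgeR adjusted p 2.19e-09). ITGA2 rose with a log2 fold change of 0.22 (edgeR adjusted p 0.00436), while ITGA1 fell by 0.33 on the log2 scale (edgeR adjusted p 0.00047). In the GENCODE annotation ITGA1 shares exon sequence with PELO on the same strand, so its fall is less certain. ITGA1 pairs with ITGB1 to bind type IV collagen, and ITGA2 pairs with it to bind type I.

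Basement membrane partners were called in 6 of 6 tested cases, 4 higher and 2 lower, where 38.5% of all tested genes were called. AGRN, a heparan sulfate proteoglycan, rose from 392 ± 11.3 to 473 ± 11.3 CPM, and FBLN1, fibulin-1, from 37.1 ± 1.10 to 50.3 ± 0.550 CPM (SD, n = 3 per group). Their log2 fold changes were 0.30 and 0.47, with edgeR adjusted p-values of 2.58e-07 and 5.72e-07. PXDN, the peroxidase that cross-links type IV collagen by sulfilimine bonds, fell from 8.91 ± 1.37 to 3.14 ± 0.423 CPM (SD, n = 3 per group; log2 fold change -1.48, edgeR adjusted p 5.05e-07). In protease regulation, 4 of 8 were higher and 2 lower. PLAT, tissue plasminogen activator, fell from 56.3 ± 0.710 to 34.7 ± 1.11 CPM (SD, n = 3 per group; log2 fold change -0.67, edgeR adjusted p 5.76e-09).

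How reads of overlapping genes were counted bears on some members. In the GENCODE annotation, 20 of the 47 members have an exon that overlaps a gene on the other strand, and the strand setting of the counting is not given in the sources used here. LOX overlaps SRFBP1, whose log2 fold change was 0.02 (edgeR adjusted p 0.855). COL9A3 overlaps TCFL5 (-0.01, edgeR adjusted p 0.882), and COL18A1 overlaps SLC19A1 (0.12, edgeR adjusted p 0.0188). TIMP4 lies in SYN2, which fell by 1.63 on the log2 scale (edgeR adjusted p 0.000785). Reads of such pairs cannot be told apart without strand. On the same strand 4 members overlap a gene, LOXL2, TIMP2, COL7A1 and MMP2. LOXL2 shares exon sequence with ENTPD4, which had a mean of 1216 counts and rose by about as much as LOXL2 (log2 fold change 0.18, edgeR adjusted p 0.00159), so the rise of LOXL2 is uncertain.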

How the data were processed

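The authors deposited a table of whole-number read counts per gene symbol and a table of normalized signal. The second equals the deposited counts divided by 1 constant per library (0.847 to 1.25), for genes with at least 10 counts in all. The submitters' processing notes name STAR 2.6.1a, Salmon, DESeq2 and hg19, with no roles. Annotation and strand setting are not given in the sources used here. Columns matched sample descriptions, and 0 were left unused.

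Counts were tested with edgeR 4.0.16 (R 4.3.3): TMM factors, filterByExpr, quasi-likelihood F-test, group as the only term, Benjamini-Hochberg adjustment over all 13832 tested genes, threshold 0.05. Standard errors are the absolute log2 fold change over the square root of F. The code was tested on simulated data. Alternatives included DESeq2 1.42.0, limma 3.58.1 (voom, and the deposited signal as log2 with a pseudocount of 1) and leaving out each library. CPM per kilobase uses the canonical transcript of GENCODE 44 lifted to GRCh37, the hg19 build. The set and lists were chosen with earlier results of these data known.

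Values in every library are given for called members that average 100 counts or change 2-fold, and for the most abundant member per kilobase of each role. From the list of other genes, the 5 called genes with the smallest p in each direction and the called integrins and DDR1 are named. Of these, 1 is not reported here. Other genes were named after their values were seen.

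Same-group libraries differed by more than counting error (chi-square over its degrees of freedom 1.41 to 2.78 over 6 pairs). Replicate numbers did not pair libraries (correlations of deviations 0.04, -0.01 and -0.10).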

Additional observations from a re-analysis of the deposited data

How the results depend on the processing

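Over 15 alternative fits, 649 of 674 values for the 46 tested members kept direction and call. The members called lower were 9 with a mean of at least 50 counts required, against 18, since fewer genes were tested. Leaving out each library in turn gave 29 to 33 called members, 12 to 14 higher and 16 to 20 lower, and 27 to 32 called genes of the other list. Sign changed in some of those fits for 4 members that were not called: LOXL1 (-0.050 to 0.027, and 0.0075 in another), MMP17 (-0.23 to 0.018), MMP25 (-0.38 to 0.091) and MMP2 (-0.81 to 0.0082). COL1A1 ranged from -1.39 to -0.50 and COL3A1 from -2.38 to -1.04. IRS2 stayed between -1.42 and -1.35 (log2) in all fits, with a largest adjusted p of 2.67e-09.

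With the replicate number as a block, although the numbers share no origin in the labels, 31 members were called (13 higher, 18 lower), the direction and call changed for 0 of 46, and IRS2 had -1.39. Of the other list 30 were called (21 higher, 9 lower). Scaling by library size alone moved the median log2 fold change of all genes by -0.03, and no scaling turned the direction of a called member. The counts of scarce members limit their precision, and no interval here covers more than the spread between cultures.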

Other observations

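Transcript length and abundance went with the fold changes of all genes. The canonical transcript was at least 4000 nt long for 25 of the 47 members. Among the 988 tested genes with such transcripts and a mean under 100 counts the median log2 fold change was -0.37, and among the 4159 with at least 100 counts it was 0.05. Their part in the members' results was not tested.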
